A study of Mus musculus with 6 samples.

Results

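NRF2 binding in GCN2 knockout (KO) cells was compared with that in wild-type (WT) cells, both fed with leucine. The cells were embryonic fibroblasts (MEFs) taken from 129S6/SvEvTac mice, GCN2-/- or wild type, and each was kept in complete DMEM, a standard culture medium, for 24 h. Chromatin bound by NRF2 was recovered with an antibody and sequenced as single reads of 50 bp (ChIP-seq), with 1 library per genotype. The labels do not say whether a culture was a clone or pooled embryos. The comparison took every peak of both complete-medium lists, 3141 in KO cells and 2336 in WT cells, which made 5477 of the 16057 peaks in the 4 NRF2 lists. KO and WT cells starved of leucine for 24 h supplied the remaining lists, 4600 peaks for KO and 5980 for WT, and were used here only to ask whether a site was found again. Peaks in all 4 lists were called against the complete-medium input (unenriched chromatin) of the same genotype.

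NRF2, encoded by Nfe2l2, is a transcription factor that is held in the cytoplasm and sent for degradation by KEAP1. When reactive molecules disable KEAP1, NRF2 enters the nucleus, pairs with a small Maf protein and binds antioxidant response elements near genes for glutathione synthesis, peroxide removal, detoxification and iron storage. GCN2, encoded by Eif2ak4, is a kinase that senses uncharged tRNA and slows translation when an amino acid is scarce, a condition that complete medium does not impose.

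A KO peak and a WT peak were taken as shared when their windows overlapped by at least 1 bp. Each window ran over 300 bp. This gave 364 shared sites, each with 1 KO and 1 WT peak, 2777 KO-only peaks and 1972 WT-only peaks, so 7.12% of the 5113 sites were shared. The shared peaks made 11.6% of the KO list (95% interval 10.5 to 12.8) and 15.6% of the WT list (14.1 to 17.1). Intervals are 95% Clopper-Pearson intervals (exact binomial) and reflect counting error alone. Since each genotype had 1 library, differences could not be set against a replicate spread and no test was made. How deeply each library was read is unknown, so a site absent from a list was not detected at the authors' threshold and is not shown to be unbound. Genotype, culture and library cannot be told apart in this design. A peak list measures neither gene expression nor the disruption of Eif2ak4, to which 0 KO peaks and 0 WT peaks were assigned, and so it does not check the knockout or the cell type.

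The sequences of promoters under peaks of each kind follow, because they show the letters on which shared and genotype-specific sites could be compared. RefSeq promoters run from 250 bases before to 50 after a transcription start site (TSS), and only the part inside the peak window is printed, on the strand of the gene, from 5′ to 3′. The sequences are from RefSeq, build GRCm38.p6. Capitals mark each match to the core antioxidant response element TGACNNNGC or to the AP-1 element TGANTCA, read on either strand. The elements can overlap, and then the whole run is in capitals. For each kind, the 3 best-ranked peaks that covered at least 50% of a protein-coding promoter are shown, together with the WT-only peaks over Pir and Gclm, a choice made after the values were seen. Prdx1 (chr4:116685349-116685603, plus strand), Txnrd1 (chr10:82858963-82859255, plus strand) and Me1 (chr9:86695865-86696057, minus strand) lay under shared peaks, here with the bounds of the KO peak.
Prdx1: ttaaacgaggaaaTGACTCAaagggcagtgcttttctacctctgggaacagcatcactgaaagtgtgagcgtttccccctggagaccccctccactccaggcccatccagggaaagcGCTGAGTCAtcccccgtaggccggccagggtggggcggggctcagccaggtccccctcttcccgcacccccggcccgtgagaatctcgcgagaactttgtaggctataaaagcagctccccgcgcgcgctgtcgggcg
Txnrd1: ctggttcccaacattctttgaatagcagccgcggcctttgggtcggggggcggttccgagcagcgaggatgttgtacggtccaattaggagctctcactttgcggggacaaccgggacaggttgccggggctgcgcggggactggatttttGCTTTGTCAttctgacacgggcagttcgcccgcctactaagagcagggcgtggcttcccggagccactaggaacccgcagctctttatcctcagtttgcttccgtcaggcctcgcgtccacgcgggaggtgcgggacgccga
Me1: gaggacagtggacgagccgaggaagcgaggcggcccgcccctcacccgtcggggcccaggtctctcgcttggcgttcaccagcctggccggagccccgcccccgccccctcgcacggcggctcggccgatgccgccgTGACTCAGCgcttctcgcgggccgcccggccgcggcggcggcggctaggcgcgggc

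Slc20a1 (chr2:129206846-129207098, plus strand), Gsg1l2 (chr11:67774403-67774657, plus strand) and Entpd3 (chr9:120539568-120539862, plus strand) lay under KO-only peaks. The Slc20a1 sequence belongs to an alternative RefSeq start inside the gene, which the authors' annotation places in intron 6 of 10.
Slc20a1: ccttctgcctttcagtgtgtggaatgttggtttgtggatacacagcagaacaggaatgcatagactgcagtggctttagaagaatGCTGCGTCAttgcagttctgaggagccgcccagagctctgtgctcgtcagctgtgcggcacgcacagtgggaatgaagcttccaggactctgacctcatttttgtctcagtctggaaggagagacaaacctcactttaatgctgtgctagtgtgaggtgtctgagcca
Gsg1l2: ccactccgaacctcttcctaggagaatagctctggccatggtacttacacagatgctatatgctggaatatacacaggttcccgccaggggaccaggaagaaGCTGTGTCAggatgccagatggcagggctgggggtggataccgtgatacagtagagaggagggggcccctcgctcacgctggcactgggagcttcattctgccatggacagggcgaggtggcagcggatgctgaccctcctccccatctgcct
Entpd3: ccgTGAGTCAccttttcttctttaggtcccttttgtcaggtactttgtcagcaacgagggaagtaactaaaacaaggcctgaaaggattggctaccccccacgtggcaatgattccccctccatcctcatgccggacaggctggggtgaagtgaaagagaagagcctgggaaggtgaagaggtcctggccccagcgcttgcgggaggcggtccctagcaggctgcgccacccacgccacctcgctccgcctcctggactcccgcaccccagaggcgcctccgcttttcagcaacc

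Srsf2 (chr11:116853120-116853344, minus strand), Htatip2 (chr7:49759380-49759561, plus strand), Cxcl10 (chr5:92348840-92349139, minus strand), Pir (chrX:164269389-164269480, plus strand) and Gclm (chr3:122245524-122245606, plus strand) lay under WT-only peaks.
Srsf2: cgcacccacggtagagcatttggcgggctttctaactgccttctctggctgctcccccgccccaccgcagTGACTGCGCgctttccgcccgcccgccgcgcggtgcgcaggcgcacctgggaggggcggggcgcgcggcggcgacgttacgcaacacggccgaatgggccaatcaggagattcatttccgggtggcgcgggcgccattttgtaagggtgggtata
Htatip2: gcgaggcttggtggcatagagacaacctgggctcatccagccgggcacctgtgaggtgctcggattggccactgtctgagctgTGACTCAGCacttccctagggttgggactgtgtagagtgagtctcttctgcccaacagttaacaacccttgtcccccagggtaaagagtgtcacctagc
Cxcl10: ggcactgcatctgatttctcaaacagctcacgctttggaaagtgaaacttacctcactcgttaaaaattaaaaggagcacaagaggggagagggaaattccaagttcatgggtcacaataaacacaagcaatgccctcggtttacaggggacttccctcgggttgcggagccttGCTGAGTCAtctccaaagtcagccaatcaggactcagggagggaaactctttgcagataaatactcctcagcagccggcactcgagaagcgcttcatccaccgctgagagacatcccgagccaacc
Pir: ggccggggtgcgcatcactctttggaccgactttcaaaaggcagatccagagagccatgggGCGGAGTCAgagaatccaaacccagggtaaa
Gclm: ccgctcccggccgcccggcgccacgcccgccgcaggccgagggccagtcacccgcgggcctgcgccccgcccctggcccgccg

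Matches to the antioxidant response element stood in all 3 shared promoters, in 2 of the 3 KO-only promoters and in 4 of the 5 WT-only promoters printed. The printed Gclm stretch held neither element, but the full Gclm promoter held 1 match to the antioxidant response element, and so did the part of the same peak window that lies under the promoter of Gm46822, a neighbour on the opposite strand. All peaks that touched a RefSeq promoter by at least 1 bp were then counted, and promoters touched by the same peak were counted once. The element was in a touched promoter for 10 of 42 KO-only peaks (23.8%, 12.1 to 39.5), 10 of 36 WT-only peaks (27.8%, 14.2 to 45.2) and 10 of 18 shared peaks of the KO list (55.6%, 30.8 to 78.5). Among all 32851 promoters in the table, 12.4% held it. The AP-1 element was in a promoter touched by 8 of these KO-only peaks (19.0%), 7 WT-only peaks (19.4%) and 8 shared peaks (44.4%), and in 7.81% of all promoters. Several promoters were touched by 2 KO-only peaks, 1 WT-only peak and 1 shared peak, so more letters were searched there than in a single promoter. A match is a description of letters in the whole promoter and does not show a binding site. The peaks were also split by whether they were found again without leucine, which leaves small counts. Of the KO-only peaks, 2 of 4 found again and 8 of 38 not found again (21.1%, 9.55 to 37.3) touched a promoter with the antioxidant response element. Of the WT-only peaks, 7 of 9 found again (77.8%, 40.0 to 97.2) did so, against 3 of 27 in neither list without leucine (11.1%, 2.35 to 29.2).

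Sharing between the genotypes was concentrated at the high-scoring end of both lists. The peak score is the authors' own whole number for each peak and is used here only to rank peaks within a list, with rank 1 the highest and equal scores given the best rank. Where a decile bound or the cut of a list fell among equal scores, those peaks were split by chromosome name and position. The 30 highest-ranked KO peaks and the 73 highest-ranked WT peaks were all shared. In the highest score decile, 221 of 315 KO peaks (70.2%, 64.8 to 75.2) and 173 of 234 WT peaks (73.9%, 67.8 to 79.4) were shared. In the second decile the shares were 19.7% of KO peaks and 32.5% of WT peaks, and in the lowest decile 2 of 314 KO peaks and 7 of 233 WT peaks were shared. The top 20% of the lists thus held 283 of the 364 shared peaks in KO cells and 249 in WT cells.

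**Figure D1:**
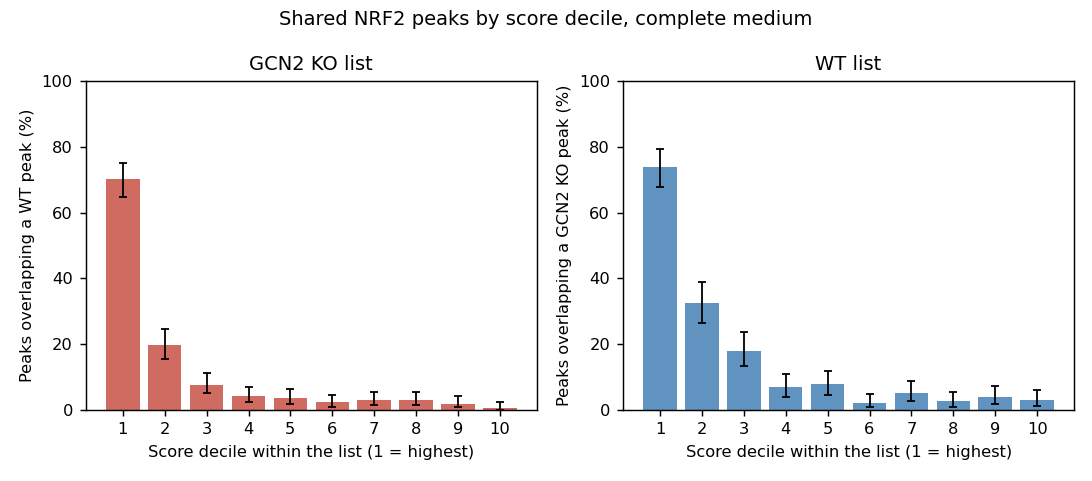
Percent of peaks shared with the other genotype (y axis) in each score decile of the list (x axis, 1 is highest), for the GCN2 KO list (left) and the WT list (right); error bars are 95% Clopper-Pearson intervals. Sharing is 70.2% in the highest KO decile and 73.9% in the highest WT decile, and is below 10% from the third KO decile and the fourth WT decile onward.

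Shared peaks lay close in position, within a limit set in advance, since windows that overlap cannot have centres more than 300 bp apart. Their centres lay a median of 24 bp apart (quartiles 10.75 and 46), and 286 of 364 pairs (78.6%) were within 50 bp. Both peaks of a pair had the same nearest gene in 364 of 364 pairs, which largely follows from the overlap rule. Genotype-specific peaks rarely had a near miss in the other list: 8 of 2777 KO-only and 8 of 1972 WT-only peaks had a peak centre of the other list within 1 kb. The median distance to the nearest centre was 214123 bp for KO-only peaks and 161965 bp for WT-only peaks. These were measured to lists of unlike length, 2336 WT peaks and 3141 KO peaks, and not again at equal length.

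Within the 364 shared sites, the order by score was similar but not the same. The relative rank, the rank as a percentage of the list's length, had a Spearman correlation of 0.57 over the 364 sites, given as a description since both peaks of a site share the underlying sequence. Of these sites 216 (59.3%) stood in the top 20% of both lists. The relative ranks of 28 sites lay 50 percentage points or more apart, 18 of them nearer the top in the KO list and 10 in the WT list. The target gene Nqo1, described below, and Eef1a1, which encodes a translation elongation factor, were nearer the top in the KO list, with the larger gap at Nqo1. Ephx1, also described below, went the other way. The Eef1a1 promoter site (chr9:78481515-78481815) ranked 40 in the KO list and 1837 in the WT list, while a second site in intron 1 of 7 ranked 124 in KO and 263 in WT. Both Eef1a1 sites were missing from the KO list without leucine and stood in the WT list without leucine, at ranks 139 and 110. Socs3, an inhibitor of cytokine signalling, had an exon site with rank 83 in KO and 874 in WT, a gap of less than 50 percentage points. Eef1a1 and Socs3 were chosen after their values were seen.

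**Figure D2:**
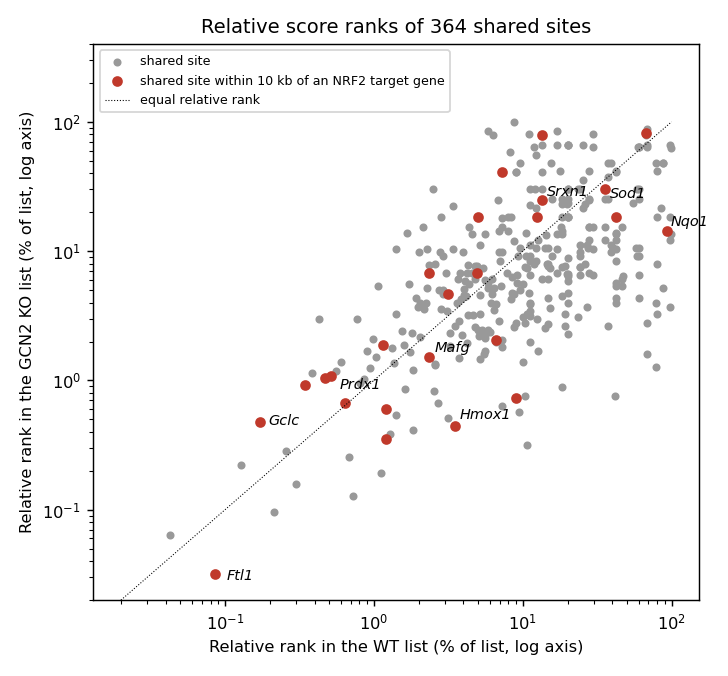
Relative score rank in the GCN2 KO list (y axis, percent of list length, log scale) against that in the WT list (x axis, percent, log scale) for the 364 shared sites; red points lie within 10 kb of an NRF2 target gene and the dotted line marks equal relative rank. Ftl1 and Gclc stand near the top of both lists, whereas Nqo1 is far lower in the WT list than in the KO list.

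The best-ranked shared sites lay at iron, glutathione and stress genes and at a few genes outside the target lists. Ftl1, which encodes the ferritin light chain, ranked 1 in KO cells and 2 in WT cells (chr7:45460824-45461124 in KO, at -1088 bp from the TSS and annotated to a transcript end). Rxra, a nuclear receptor that partners many others, ranked 2 in KO and 1 in WT, in intron 2 of 9 and 29862 bp from the TSS. It lies beyond the 10 kb limit used for naming and was chosen after its rank was seen. Creld1 ranked 3 in KO and 5 in WT, in a window annotated to an L1MB5 LINE element. The bromodomain gene Brd2 ranked 9 in KO and 6 in WT in intron 1 of 12. The chemokine gene Ccl1 ranked 8 in KO and 16 in WT, and a site near Krt9, a keratin gene, ranked 12 in KO and 30 in WT. These sites were chosen for their ranks in both lists, so their high ranks follow from the choice. How far the tops of the 2 lists coincide is given by the decile shares above.

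NRF2 target genes were then counted by function. A gene was counted when it was the authors' nearest gene for a peak no more than 10 kb from its TSS. Of 67 target genes, 25 had a KO peak and 33 had a WT peak, 23 of them in both lists. Over all 21900 protein-coding genes, 3.03% had a KO peak, 2.28% had a WT peak and 0.553% had a peak in both lists. A KO peak without a WT peak was found at 2 target genes, against 2.47% of all protein-coding genes, and a WT peak without a KO peak at 10, against 1.73%. All shared target genes carried an overlapping site. Across all protein-coding genes this held for 104 of 121, and the other 17 had separate sites. The KO list was the longer one yet covered fewer target genes, and with the KO list cut to the 2336 highest-scoring peaks 22 target genes had a KO peak. That cut fell among equal scores, and Keap1 was left out at a score equal to some that were kept. Without leucine the counts were 24 in KO cells, against 4.03% of all protein-coding genes, and 38 in WT cells, against 6.17%.

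Closer to the TSS fewer target genes had a peak in 1 or both lists, 16 at 1 kb against 35 at 10 kb. With a limit of 1 kb, 12 target genes had a KO peak and 14 had a WT peak, against 0.425% of all protein-coding genes for KO and 0.397% for WT. In both lists were 10 target genes, against 0.0959% of all genes. A KO peak alone was found at 2 target genes (0.329% of all genes) and a WT peak alone at 4 (0.301% of all genes).

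Glutathione synthesis and cystine uptake had 1 gene of 7 with a KO peak and 2 with a WT peak. Gclc, the catalytic subunit of the enzyme that starts glutathione synthesis, ranked 15 in KO cells (chr9:77750598-77750898) and 4 in WT cells, at -3787 bp from the TSS in KO. Gclm, its regulatory subunit, had a WT peak alone in the 5′ UTR, at rank 428 (chr3:122245524-122245824). The Gclm site was found again in the WT list without leucine at rank 189 and was not in the KO list without leucine, so it was listed in both WT libraries and in neither KO library.

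Thioredoxin and peroxide removal had 6 of 10 genes in the KO list and 7 in the WT list. Prdx1, a peroxiredoxin that reduces hydrogen peroxide, ranked 34 in KO and 12 in WT at its promoter. Txn1, thioredoxin itself, ranked 21 in KO and 15 in WT, and Txnrd1, the reductase that recharges it, ranked 59 in KO and 27 in WT. All of these stood in the top 3% of both lists. Prdx6, which removes peroxides, ranked 23 in KO and 210 in WT, in intron 1 of 4, and had a further KO-only site upstream at rank 2470. Srxn1, sulfiredoxin, which repairs oxidised peroxiredoxins, ranked 774 in KO and 314 in WT, and the superoxide dismutase gene Sod1 ranked 945 in KO and 832 in WT. Gpx4, which reduces lipid peroxides, had a WT peak alone at rank 1108 and no peak in either list without leucine.

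Among 6 genes of NADPH production, Me1, malic enzyme, was in both lists with rank 146 in KO and 73 in WT at its promoter. Pgd, an enzyme of the pentose phosphate pathway, had a WT peak alone at rank 470, and its peak in the WT list without leucine lay at another site.

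Detoxification genes with a peak numbered 6 of 21 in KO and 8 in WT. The glutathione transferase gene Gstm1 ranked 33 in KO and 11 in WT, in intron 7 of 7, and Gstp2 ranked 11 in KO and 28 in WT. Members of these transferase families resemble each other closely, so reads could be split between copies. Nqo1, the quinone reductase, ranked 452 in KO and 2188 of 2336 in WT at its promoter (chr8:107403501-107403801 in KO). Ephx1, an epoxide hydrolase, had the opposite order, with rank 2470 in KO and 314 in WT, as did Aox1, aldehyde oxidase, with 581 in KO and 117 in WT. Without leucine, the Ephx1 site ranked 288 in KO and 223 in WT, and the Aox1 site 422 in KO and 167 in WT. The best Nqo1 peak within 10 kb then had a relative rank of 14.6% in KO and 6.07% in WT, so its order was turned. Esd, esterase D, had a KO peak alone in complete medium (chr14:74733416-74733716, intron 1 of 8, rank 170), but the site was in both lists without leucine, at rank 567 in KO and 506 in WT. Of the 3 genes with a WT peak alone, Gstm3 (rank 428) and Cbr3 (rank 874) were in both lists without leucine, and Gsta4 (rank 1255) was in neither.

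Of 6 efflux transporter genes, 1 had a KO peak and 3 had a WT peak. Abcc1, which exports glutathione conjugates, ranked 581 in KO and 985 in WT. Abcc4 (rank 234) and Abcc2 (rank 470) had a WT peak alone. The Abcc4 site, in a window annotated to an L1M4 repeat, was found without leucine in both KO (rank 591) and WT cells (rank 236), and the Abcc2 site in neither.

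Heme and iron target genes were the group with the fullest overlap, with 5 of 7 in KO and the same 5 in WT. Hmox1, heme oxygenase 1, had a pair of upstream sites that ranked 14 and 64 in KO (chr8:75083833-75084133 and chr8:75089568-75089868) and 82 and 154 in WT. Fth1, the ferritin heavy chain, ranked 19 in KO and 28 in WT, at -1999 bp from the TSS in KO. Slc48a1, a heme transporter, ranked 29 in KO and 8 in WT, and Fech, which inserts iron into heme, was also shared.

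Regulators and autophagy genes had 5 of 10 in KO and 6 in WT. Mafg, a small Maf partner of NRF2, ranked 48 in KO and 55 in WT, and a second Mafg site in intron 1 of 2 was KO-only, at rank 2096, and was found again in the KO list without leucine (rank 560) alone. Sqstm1, the autophagy receptor p62 that binds KEAP1, had a pair of shared sites, ranked 214 and 581 in KO and 116 and 292 in WT. Bach1, a repressor that competes for the same elements, ranked 1290 in KO and 170 in WT and was in neither list without leucine. Nfe2l2 itself had a WT peak alone (chr2:75703797-75704097, intron 1 of 4, rank 314), found again without leucine in WT at rank 2077. Pir, pirin, had a WT peak alone at rank 188 and rank 463 in WT without leucine. Keap1 had a KO peak alone in its 5′ UTR at rank 2096, and without leucine the site was in the WT list, at rank 2557, and not in the KO list.

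Taken by rank, the target genes of both lists stood high in each. Their best peak had a median relative rank of 1.88% in KO and 3.13% in WT over the 23 shared genes. The 10 genes with a WT peak alone had a median of 19.2% (8.05 to 53.7), and 5 of the 10 stood in the top 20% of the WT list. A peak of the same gene was found without leucine for 7 of the 10 in WT cells and for 3 of the 10 in KO cells. The genes with a WT peak alone thus had a lower median rank than those in both lists, although 9 of the 10 stood in the top 50% of the WT list. This order was not particular to target genes. Over all peaks, not a gene's best, shared peaks had a median relative rank of 6.81% in KO and 10.7% in WT. All WT-only peaks had a median of 54.9%. Of these 1972 peaks, 219 stood in the top 20% and 843 in the 5 highest deciles. A site just under the threshold in KO cells and a site with no binding cannot be told apart.

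**Figure D3:**
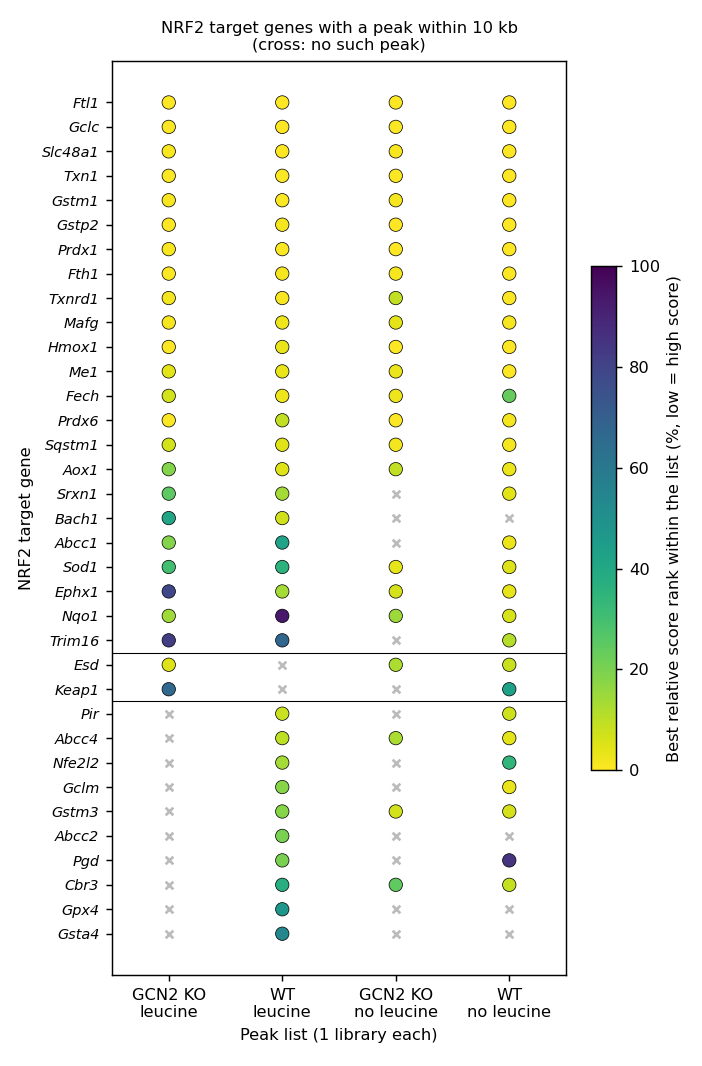
NRF2 target genes with a peak within 10 kb of the TSS (rows) in the 4 peak lists (columns); colour gives the best relative score rank within the list in percent, low values being high scores, and a cross marks a gene with no such peak. The upper block holds the 23 genes in both complete-medium lists, the middle block the 2 with a KO peak alone and the lower block the 10 with a WT peak alone.

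Other lists showed few peaks in either genotype. Of 43 ATF4 and amino acid response genes, the transcription programme downstream of GCN2, 0 had a KO peak and 1 had a WT peak, Slc3a2, which encodes a chain of the cystine transporter (intron 1 of 8, rank 874). None of the 18 genes for AP-1, CNC and related factors and none of the 31 proteasome subunit genes had a peak in either list. Among 26 autophagy and lysosome genes, Tfe3, a regulator of lysosome genes, was shared, with rank 311 in KO and 65 in WT, and the protease gene Ctsd had a KO peak alone at rank 250 that was found without leucine in both KO and WT cells. Of 34 further heme and iron genes, 2 had a KO peak, among them Tfr2, and 2 others had a WT peak, Slc11a1 and Steap3. These are counts of 0 to 2 genes per list and genotype, to be read beside the 3.03% (KO) and 2.28% (WT) of all protein-coding genes, and nothing particular to these lists can be read from them. Genes typical of fibroblasts had a peak at 2 of 20 in KO and 0 in WT, those of macrophages at 0 of 10 in KO and 2 in WT, and those of neurons and hepatocytes at 2 of 10 in KO and 0 in WT. These lists say where peaks lie, not which cells were present.

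The highest-scoring KO-only peaks near a gene were mixed in kind. The first was Mir3082 at rank 31 (chr17:25831954-25832254), part of a run of 3 KO-only windows within 2205 bp that also took in Stub1, a ubiquitin ligase gene (exon 1 of 7, rank 150). None of the 3 was found in either list without leucine, and the run was noticed after the values were seen. Runs of at least 3 specific windows, with neighbouring starts at most 5 kb apart, numbered 4 for KO-only and 0 for WT-only peaks. These came from lists of unlike length. Adcy3 (rank 90), an adenylate cyclase gene, Dusp26 (116), a phosphatase gene, Slc20a1 (124), a phosphate transporter gene, and Clgn (150), a chaperone gene, were found again without leucine in both genotypes. Lrp8 (175), a lipoprotein receptor gene, and Zfyve20 (190) were also found in both. Strn3 (162), Cyr61 (187), which encodes a matricellular protein, and Trmt13 (209) were found again in KO cells alone. Sfi1 (136), in a B3A SINE repeat with a WT peak centre 884 bp away, and Dnmt1 (214), the maintenance DNA methyltransferase gene, were in neither. Over the 15 genes chosen by rank, 10 were found again in KO and 8 in WT without leucine, 7 of them in both and 4 in neither.

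The highest-scoring WT-only peaks near a gene were found again without leucine mostly in WT cells. Srsf2, a splicing factor gene, ranked 120 at its promoter and was found without leucine at rank 237 in KO and 1201 in WT. Fam212a (154), Disp1 (169), which acts in Hedgehog release, and Dnmt3l (170), a cofactor of DNA methyltransferases, were also found in both genotypes. 9130015L21Rik (76), the imprinted gene Mest (125), the major vault protein gene Mvp (144), Cox20 (185), Pir (188), Htatip2 (192), Mirlet7i (199) and AI413582 (213) were found again in WT cells alone, Mvp at rank 95. 4933417E11Rik (145), Hrsp12 (213) and Pxt1 (218) were in neither. Of these 15 genes, 12 were found again in WT and 4 in KO without leucine. Peaks at a gene's promoter or 5′ UTR numbered 5 of the 15 WT-only genes and 1 of the 15 KO-only genes. Both sets of 15 were limited to 10 kb from a TSS. Over the whole lists, promoter-TSS windows made 2.28% (1.67 to 3.04) of WT-only and 1.80% (1.34 to 2.37) of KO-only peaks. Htatip2 and Dnmt3l had a KO peak as well, at other positions: Htatip2 in an intron 4607 bp from the TSS at rank 348, and Dnmt3l at -5547 bp and rank 1509.

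The lists without leucine gave a further library of each genotype, in another medium. Of the KO-only peaks, 149 of 2777 (5.37%, 4.56 to 6.27) overlapped a peak of KO cells without leucine and 117 (4.21%, 3.50 to 5.03) one of WT cells without leucine. When the higher-scoring 50% of each list were compared afresh, the order turned, with 7.66% found in KO and 8.06% in WT. That comparison also changes which peaks are KO-only. Among the KO-only peaks of the whole lists, those in the 5 highest deciles kept the order, with 8.31% found in KO and 7.34% in WT. Of the WT-only peaks, 117 of 1972 (5.93%, 4.93 to 7.07) overlapped a peak of KO cells without leucine and 221 (11.2%, 9.85 to 12.7) one of WT cells. With the WT list without leucine cut to the KO length, the WT shares were 4.07% of KO-only and 10.6% of WT-only peaks. The larger number of WT-only peaks lay in WT cells in each of these settings, every time in 1 library. Shared sites were found again in 280 of 364 cases in KO (76.9%, 72.2 to 81.2) and in 313 in WT (86.0%, 82.0 to 89.4).

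The share found again was highest in the highest decile, which held 48 of the 215 KO-only peaks (22.3%) and 51 of the 266 WT-only peaks (19.2%) found in either list without leucine. There, 38 of 94 KO-only peaks (40.4%, 30.4 to 51.0) were found again in KO and 30 (31.9%, 22.7 to 42.3) in WT cells without leucine, and 46 were in neither. Of the 61 WT-only peaks of the highest decile, 27 (44.3%, 31.5 to 57.6) were found in KO and 49 (80.3%, 68.2 to 89.4) in WT cells, and 10 were in neither. In the lower 80%, 2308 of 2431 KO-only peaks (94.9%) and 1612 of 1753 WT-only peaks (92.0%) were in neither list without leucine. Over the whole lists, 2562 of 2777 KO-only peaks and 1706 of 1972 WT-only peaks were in no other list.

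**Figure D4:**
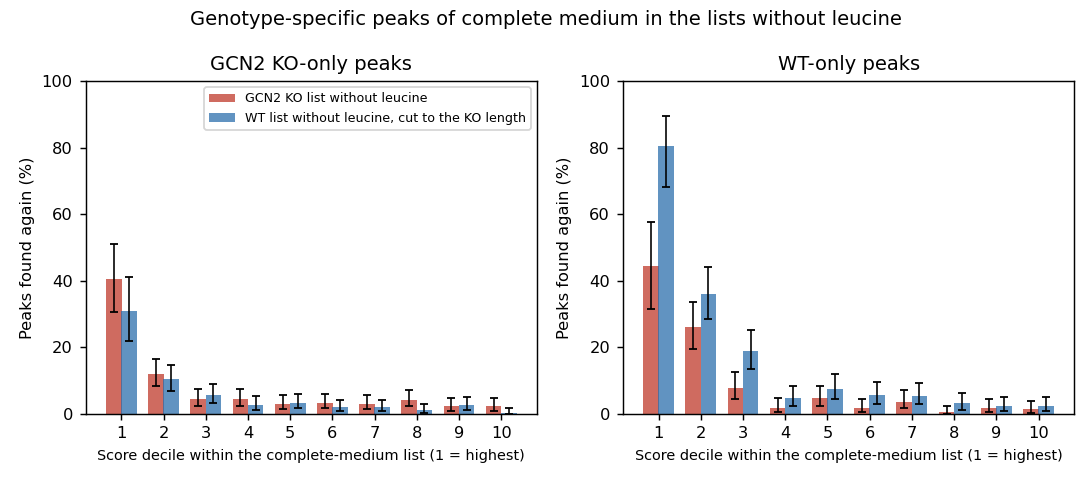
Percent of genotype-specific peaks found again in the lists without leucine (y axis) by score decile in the complete-medium list (x axis, 1 is highest), for GCN2 KO-only peaks (left) and WT-only peaks (right); red bars are the KO list without leucine, blue bars the WT list cut to the same length, and error bars are 95% Clopper-Pearson intervals. In the highest decile, KO-only peaks are found again in 40.4% (KO) and 30.9% (WT), and WT-only peaks in 44.3% (KO) and 80.3% (WT).

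Over the whole lists, KO-only and WT-only peaks were annotated in like proportions, and shared peaks lay nearer to a TSS. Peaks within 10 kb of a TSS made 24.4% of KO-only, 24.0% of WT-only and 35.4% (30.5 to 40.6) of shared peaks, the last taken from the KO list. Promoter-TSS windows made 1.80% (1.34 to 2.37) of KO-only, 2.28% (1.67 to 3.04) of WT-only and 4.67% (2.74 to 7.37) of shared peaks. Exon windows went the other way, with 5.87% (5.02 to 6.81) of KO-only, 4.87% (3.96 to 5.91) of WT-only and 1.10% (0.300 to 2.79) of shared peaks. The intervals of KO-only and WT-only peaks overlapped for promoters and exons. In the top 20% of the lists KO-only and WT-only peaks were further apart from each other, on few peaks, and their intervals still overlapped. The exon share of WT-only peaks was there below that of shared peaks. There, promoter-TSS windows held 3 of 346 KO-only (0.867%, 0.179 to 2.51), 7 of 219 WT-only (3.20%, 1.29 to 6.47) and 14 of 283 shared peaks (4.95%, 2.73 to 8.16). Exon windows held 11 KO-only (3.18%, 1.60 to 5.62), 1 WT-only (0.457%, 0.0116 to 2.52) and 3 shared peaks (1.06%, 0.219 to 3.07). Over the whole lists again, introns held 44.5% of KO-only, 45.0% of WT-only and 42.9% of shared peaks. Intergenic windows held 44.2% of KO-only, 43.6% of WT-only and 47.8% of shared peaks. The median distance to the TSS was 29735 bp for KO-only, 29121.5 bp for WT-only and 20263.5 bp for shared peaks. The median GC content, given by the authors as a fraction of the window, was 0.522 for KO-only, 0.515 for WT-only and 0.505 for shared peaks. In the top 20% of the lists it was 0.505 for KO-only, 0.492 for WT-only and 0.505 for shared peaks, so the order of the classes depended on score.

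**Figure D5:**
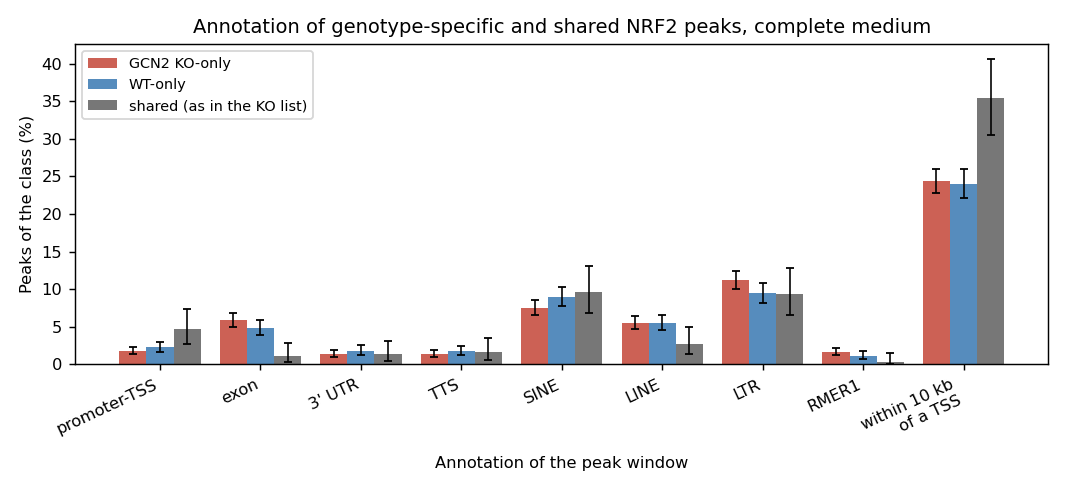
Percent of GCN2 KO-only, WT-only and shared peaks (y axis) by the authors' annotation of the window (x axis); error bars are 95% Clopper-Pearson intervals. Shared peaks stand above both specific classes at promoters and within 10 kb of a TSS, and below them in exons.

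Repeat elements held a larger share of specific than of shared peaks in the top 20% of the lists, where these classes also differed in score. Repeats here are windows whose detailed annotation by the authors names a repeat, chiefly a SINE, LINE or LTR element, which are kinds of transposon. Over the whole lists they held 27.2% of KO-only, 26.5% of WT-only and 23.1% of shared peaks. In the top 20% of the lists they held 140 of 346 KO-only peaks (40.5%, 35.2 to 45.8) and 78 of 219 WT-only peaks (35.6%, 29.3 to 42.3), against 59 of 283 shared peaks (20.8%, 16.3 to 26.1). In the lower 80% the shares were 25.3% of KO-only, 25.3% of WT-only and 30.9% of shared peaks. The classes of the top 20% were not matched on score. Their median rank in the KO list was 159 for shared and 423 for KO-only peaks. In the WT list it was 136 for shared and 314 for WT-only peaks. Among the top-20% KO-only peaks, repeats held 36 of 92 found again without leucine (39.1%, 29.1 to 49.9) and 104 of 254 found in neither list (40.9%, 34.8 to 47.3). Among the top-20% WT-only peaks they held 45 of 125 found again (36.0%, 27.6 to 45.1) and 33 of 94 found in neither (35.1%, 25.5 to 45.6). How uniquely reads map in these windows was not tested.

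Single repeat families took up different shares of the classes. B3 SINE windows made 13 of 346 top-20% KO-only peaks (3.76%, 2.02 to 6.34), 26 of 219 WT-only peaks (11.9%, 7.90 to 16.9) and 16 of 283 shared peaks (5.65%, 3.27 to 9.02). LTR windows made 54 KO-only (15.6%, 11.9 to 19.9), 24 WT-only (11.0%, 7.15 to 15.9) and 22 shared peaks (7.77%, 4.94 to 11.5) of the top 20%. Over the whole lists, RMER19 elements, of the LTR kind, held 15 KO-only peaks (0.540%), 19 WT-only peaks (0.963%) and 13 shared peaks (3.57%), and B4 SINE elements 64 KO-only (2.30%), 42 WT-only (2.13%) and 2 shared peaks (0.549%). These families were picked from many after their counts were seen. Their intervals reflect counting error alone and cannot set a genotype difference apart from a difference between 1 library and another. Chromosome 3 held 3.60% (2.97 to 4.31) of KO peaks and 5.61% (4.71 to 6.62) of WT peaks in complete medium, and without leucine 4.11% of KO and 3.83% of WT peaks. Chromosome X held 12 KO peaks (0.382%) and 6 WT peaks (0.257%), among them the shared Tfe3 site and the WT-only Pir site. Chromosomes 3 and X were singled out from all chromosomes, with no background share beside them.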

How the data were processed

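NRF2 ChIP-seq was deposited as 1 annotated peak list per library. Reads were processed with BWA 0.7.12, MACS2 2.1.0 and HOMER 4.7 on mm10, per the submitters' processing notes, and the settings are not given in the sources used here. Peaks were called for each library alone against the complete-medium input of its genotype, per the file headers. Each peak carries a score that the authors deposited as an integer, of a scale that no label or header explains. The deposited GC and CpG content is a fraction of the window. Distances to the TSS are the authors' own, in bp.

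From these lists, overlaps, ranks within a list, medians and shares with exact Clopper-Pearson 95% intervals were computed with Python 3.11.15, pandas 2.3.3, numpy 2.4.6, SciPy 1.17.1 and matplotlib 3.10.9. The overlap code was tested on simulated data. The members and the gene lists were chosen with earlier results of these data known. There were 15 lists with 259 entries, all of which matched the RefSeq GRCm38.p6 gene table, the assembly behind mm10. Named genes were the 15 best shared sites by mean relative rank and the 15 best-ranked KO-only and WT-only peaks, within 10 kb of a TSS and 1 per gene, then list members with a peak and Eif2ak4. Genes named outside this rule are said to be so. A few genes that met this rule are not reported here by name, but remain in the counts. Peak-window sequences outside the RefSeq promoters were not analysed here. Alternatives were lists of equal length, the higher-scoring 50% of each list, a reciprocal overlap of 50%, peaks within 500 bp counted as shared, main chromosomes without satellite, simple repeat, low complexity and rRNA windows, and TSS limits of 1 kb and 50 kb. Equal lengths for the lists without leucine were added after the data were seen.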

Additional observations from a re-analysis of the deposited data

How the results depend on the processing

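Of 104 recomputed values over 20 results, 86 stayed within the interval of the reported share or median, or within 1.5 times the reported count. The 18 that moved came from 4 settings. With the KO list cut to the 2336 highest-scoring peaks, 15.1% of KO peaks were shared, KO-only peaks were found again without leucine in 6.45% of cases in KO and 5.24% in WT, and 1 target gene had a KO peak alone. That cut fell among equal scores from rank 2096. Keap1, at that rank, was left out by its place in the chromosome order, not by its score. In the higher-scoring 50% of each list, 19.4% of KO peaks and 26.0% of WT peaks were shared. There, KO-only peaks were found again in 7.66% (KO) and 8.06% (WT) of cases, which turns the order of the genotypes in a comparison that also redraws the classes, and WT-only peaks in 11.8% (KO) and 20.7% (WT). The cause was not tested. The median GC fraction was then 0.518 for KO-only and 0.508 for WT-only peaks, and exons held 2.78% of WT-only peaks. With a TSS limit of 1 kb, 12 target genes had a KO peak, 14 a WT peak, 10 both and 4 a WT peak alone. At 50 kb, 4 had a KO peak alone. None of the values moved with a reciprocal overlap of 50%, with peaks within 500 bp counted as shared, on main chromosomes without simple repeats, or with lists without leucine of equal length. No paired analysis was possible because each genotype had 1 library and no test was made. Unknown depth limits every statement on peaks found in a single list.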
